A study of Mus musculus with 3 samples.

Results

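The 8 genes described here belong to the Nodal signalling pathway: the ligand Nodal, its co-receptor Tdgf1 (Cripto), the type II receptor Acvr2b, the transcriptional effector Foxh1, and 4 inhibitors, namely the secreted Lefty1 and Lefty2 and the intracellular Smad7 and Skil. They were chosen by gene name, with earlier results of these data known, and all 8 were found on the array among 35019 gene names. The 8 genes had 11 of the 55681 probes, 3 of them for Tdgf1 and 2 for Skil. All 11 probes passed the filter on dim probes, as did 22441 genes in all.

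Nodal is a ligand of the TGF-beta superfamily. With a co-receptor of the Cripto family it engages type I and type II activin receptors, which phosphorylate Smad2 and Smad3, and these enter the nucleus with Smad4 and act on DNA together with factors such as Foxh1. Many inhibitors of the pathway are themselves induced by it: Lefty1 and Lefty2 block the ligand and its co-receptor outside the cell, Smad7 acts at the receptors, and Skil (SnoN) represses transcription in complex with Smads. Mouse ES cells express Nodal, and the pathway is known for patterning the epiblast and for mesoderm and endoderm formation in the embryo.

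The study asked how gene expression changes when Nr0b1 (Dax1), an X-linked orphan nuclear receptor gene, is deleted in mouse ES cells. RNA of 3 groups was measured on 9 one-colour arrays, 3 per group. Nr0b1 fl-/Y−Tx ES cells carried the floxed allele without treatment. Nr0b1 fl-/Y+Tx ES cells had, per the paper, been cultured for 4 days with 4-hydroxy tamoxifen (Tx) to bring about the deletion. Nr0b1 KO/Y ES cells had been passaged several times after deletion. All groups derived from the male EB5 line, itself from E14tg2a, and all carried the Tx-activated recombinase MerCreMer and an Egfp gene brought in with piggyBac vectors. The design thus has no Tx-treated group without the floxed allele, so an effect of Tx or of the recombinase and an effect of the deletion cannot be told apart at 4 days. Nr0b1 KO/Y cells descend from deleted cells, so the passages and the deletion cannot be told apart in them, and the sources used here do not say from which clones the arrays were made.

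Levels below are log2 intensities of a probe over the 75th percentile of its array, so 0 means the signal at that percentile, and 1 unit is a doubling. Levels of different genes are not set against each other, since probes differ in how brightly they report the same amount of RNA. A gene was called changed when it differed more than 2-fold with an adjusted p under 0.05 from limma (moderated linear model fitted to all 9 arrays, Benjamini-Hochberg adjustment over 22441 genes). In RNA of whole cultures, fewer cells expressing a gene and less RNA per cell cannot be told apart.

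Nr0b1 itself lay at 4.10 ± 0.084 (SD, n = 3) in −Tx, at -2.55 ± 0.13 in +Tx and at -6.26 ± 0.094 in KO/Y arrays, at background on all 3 of them. It was 101-fold lower in +Tx and at least 322-fold lower in KO/Y than in −Tx arrays (adjusted p = 5.49e-09 and 1.30e-10 from limma). Its probe was still well above background on all 3 +Tx arrays, at least 3.20-fold above KO/Y arrays (adjusted p = 7.61e-07 from limma). All 10 ES cell markers checked, among them Pou5f1, Sox2 and Nanog, were well above background on all 9 arrays. On single arrays 28815 to 32511 probes gave signals well above background, and 0 spots were saturated. The 3 −Tx arrays and 1 +Tx array shared one slide, and the other 2 +Tx arrays and the 3 KO/Y arrays the other, so −Tx and KO/Y never met on a slide.

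The probes that carry the results are shown by their first 30 of 60 bases as the array annotation gives them, with capitals on stretches of 15 or more bases that also occur, on either strand, in probes of other genes. They are printed because the 2 Lefty paralogues could share signal and because the probes of Tdgf1 gave different answers.
Lefty1: ctttcatgcaaatctgaagtgctcattata
Lefty2: aagggtgtacctgagtctttctggccattg
Nodal: ttattagattataaacgagccatttggttc
Tdgf1, brightest probe: CTACACAGAAACCCTGTCTCGgggagAAAA
Tdgf1, probe 2 by signal: tgatgctcacagtgaatccctaatgttacc
Tdgf1, probe 3 by signal: gttattattaaatcccagtgtgcaactgga
Skil, brightest probe: tgccaatgcATATAGTTTTATGATTaaaat
Skil, probe 2 by signal: tgctcagaggatggaggaattctatattga
On mm9 the Lefty1 probe maps to chr1:182868137-182868196 and the Lefty2 probe to chr1:182828893-182828952, both on the plus strand and 39.2 kb apart. The longest run of bases the 2 whole probes share is 5, and neither shares 15 or more bases with a probe of any other gene. Probes were compared only with probes. Whether either Lefty probe matches the transcript of the other Lefty gene was not tested. The Nodal probe lies at chr10:60887790-60887849 on the plus strand. The Tdgf1 probes lie on the minus strand at chr9:110842722-110842781 for the brightest, chr9:110843099-110843158 for probe 2 and chr9:110842866-110842925 for probe 3. The Skil probes lie on the plus strand at chr3:31021203-31021262 for the brightest, which has 10 spots per array, and chr3:31016390-31016449 for probe 2. Acvr2b was read at chr9:119342560-119342619 on the plus strand and Foxh1 at chr15:76498767-76498826 on the minus strand. The exon or UTR in which each probe lies was not analysed here.

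**Figure D1:**
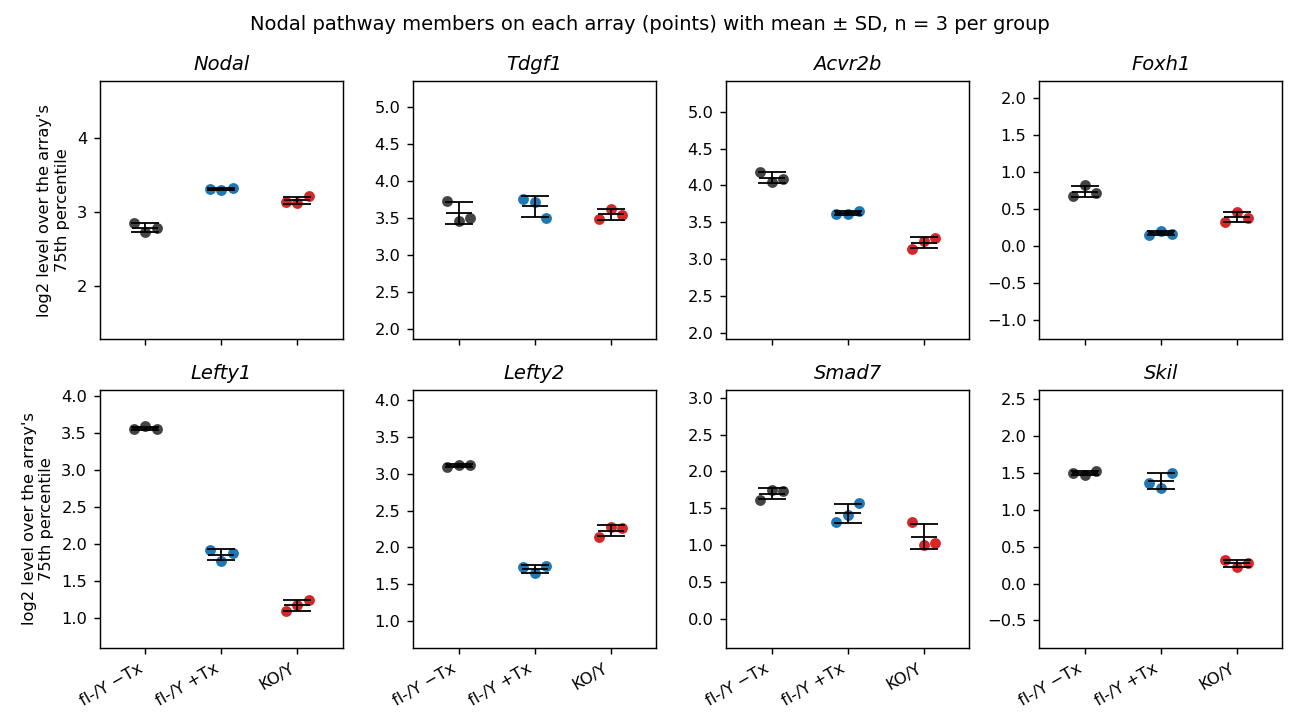
Level of each of the 8 genes (y axis, log2 intensity over the 75th percentile of the array, every panel spanning the same range) on the 3 arrays of each group (points, in slide order), with the mean and SD as bars. −Tx and +Tx stand for the floxed cells without Tx and after 4 days with Tx. Lefty1 steps down from 3.57 to 1.85 to 1.17, and Lefty2 falls from 3.11 to 1.71 and lies at 2.23 in KO/Y. Skil is low only in KO/Y arrays, and Nodal is higher in +Tx and KO/Y arrays than in −Tx arrays.

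The secreted inhibitors Lefty1 and Lefty2 were both lower after 4 days with Tx, and they then parted. Lefty1 was lower still in KO/Y cells, whereas Lefty2 stood above its 4-day level. Lefty1 was at 3.55, 3.60 and 3.56 on the −Tx arrays, at 1.91, 1.77 and 1.88 on the +Tx arrays, and at 1.09, 1.18 and 1.24 on the KO/Y arrays. The 3 groups did not overlap, and KO/Y was the lowest. Groups without overlap were common on these arrays, here and for the genes below. Of all 22441 genes, 47.0% did not overlap between −Tx and +Tx, 39.7% between +Tx and KO/Y, and 57.7% between −Tx and KO/Y. Lefty1 was 3.28-fold lower in +Tx than in −Tx arrays (log2 fold change -1.72, standard error 0.066, adjusted p = 6.98e-07 from limma), and only 41 of the 22441 genes tested had a more negative change. It was 5.28-fold lower in KO/Y than in −Tx arrays (log2 fold change -2.40, adjusted p = 4.28e-08). The step from +Tx to KO/Y was smaller, 1.61-fold, and passed the adjusted p without reaching 2-fold (log2 fold change -0.68, adjusted p = 0.000189).

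Lefty2 was at 3.08, 3.12 and 3.12 on the −Tx arrays, at 1.74, 1.65 and 1.74 on the +Tx arrays, and at 2.14, 2.28 and 2.26 on the KO/Y arrays. Here too no group overlapped another, but the lowest was +Tx. The fall at 4 days was 2.63-fold (log2 fold change -1.40, standard error 0.063, adjusted p = 1.95e-06 from limma), with 77 genes changing more in that direction. From +Tx to KO/Y, Lefty2 was 1.43-fold higher (log2 fold change 0.52, adjusted p = 0.000599), which left it 1.84-fold below −Tx arrays (log2 fold change -0.88, adjusted p = 1.29e-05). Neither of these passed 2-fold.

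Because both genes are read on every array, the difference between them can be followed within an array. The Lefty1 level minus the Lefty2 level was 0.47, 0.48 and 0.44 on the −Tx arrays, 0.17, 0.12 and 0.13 on the +Tx arrays, and -1.05, -1.11 and -1.02 on the KO/Y arrays. Lefty1 thus fell by 0.32 more than Lefty2 at 4 days on the log2 scale, and between +Tx and KO/Y the 2 changes differed by 1.20. A 2-sided exact permutation test over the 6 arrays gave p = 0.1 for each of the 3 comparisons of this difference, which is the smallest p that 3 arrays against 3 can give.

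Against −Tx arrays, the ligand Nodal moved opposite to Lefty1 and Lefty2, and by less. It was at 2.85, 2.73 and 2.79 on the −Tx arrays, at 3.31, 3.30 and 3.32 on the +Tx arrays, and at 3.14, 3.12 and 3.22 on the KO/Y arrays. Both the +Tx and the KO/Y arrays lay wholly above the −Tx arrays. The rise was 1.44-fold at 4 days (log2 fold change 0.52, standard error 0.059, adjusted p = 0.000534 from limma) and 1.29-fold in KO/Y over −Tx (log2 fold change 0.37, adjusted p = 0.00103), and neither passed 2-fold. Between +Tx and KO/Y the change was -0.15 with a 95% confidence interval from -0.29 to -0.018 and an adjusted p of 0.0927. With slide as a block the adjusted p of KO/Y over −Tx was 0.0577, and that of +Tx over −Tx was 0.0505 on the shared slide alone, with 3 −Tx arrays and 1 +Tx array, with log2 fold changes of 0.37 and 0.52.

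For Tdgf1, the membrane-anchored co-receptor of Nodal, the answer depended on the probe. The brightest probe, which stands for the gene in the counts below, gave 3.73, 3.46 and 3.50 on the −Tx arrays, 3.75, 3.72 and 3.50 on the +Tx arrays, and 3.48, 3.63 and 3.54 on the KO/Y arrays. The 3 groups overlapped, and no comparison passed the adjusted p. The log2 fold change at 4 days was 0.094 (95% confidence interval -0.13 to 0.32, adjusted p = 0.517 from limma).

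Probe 2 of Tdgf1 was at 2.57, 2.69 and 2.70 on the −Tx arrays, at 3.20, 3.08 and 3.03 on the +Tx arrays, and at 3.14, 2.89 and 2.93 on the KO/Y arrays. Probe 3 was at 1.38, 1.29 and 1.31, then 1.86, 1.80 and 1.74, and then 1.80, 1.73 and 1.67 in the same order. On both probes every +Tx and KO/Y array lay above every −Tx array. Probe 2 was higher by 0.45 at 4 days and by 0.33 in KO/Y over −Tx (adjusted p = 0.00772 and 0.0129 over 31188 probes tested one by one), and probe 3 by 0.47 and 0.41 (adjusted p = 0.00165 and 0.00109 from limma). None of these reached 2-fold. The brightest probe shares stretches of 15 or more bases with probes of 15 other genes, as 1.82% of all tested probes do with as many genes or more, and the other 2 probes share none with any. The part of these shared stretches in its signal was not tested.

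**Figure D2:**
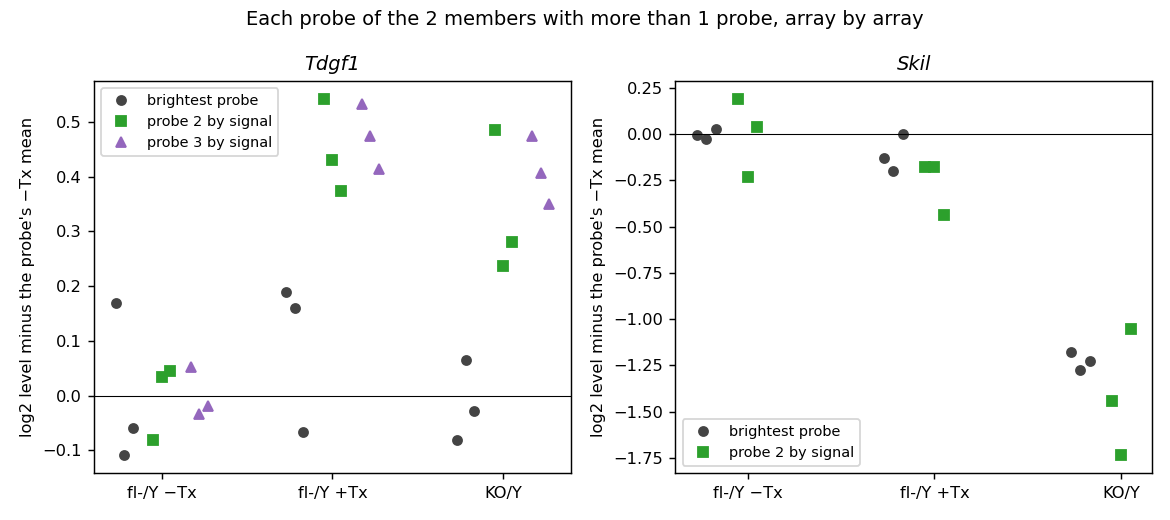
Each probe of Tdgf1 and Skil on each array, as its log2 level minus its own mean over the −Tx arrays (y axis), for the 3 groups (x axis), with one marker shape per probe. On Tdgf1 probes 2 and 3 every +Tx and KO/Y array lies above every −Tx array while the brightest probe overlaps, and both Skil probes are down only in KO/Y arrays.

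Acvr2b, a type II receptor that binds activins and Nodal, declined in each step. Its level was 4.19, 4.04 and 4.09 on the −Tx arrays, 3.61, 3.62 and 3.66 on the +Tx arrays, and 3.14, 3.24 and 3.29 on the KO/Y arrays. The 3 groups did not overlap. The log2 fold change was -0.48 at 4 days, -0.40 from +Tx to KO/Y and -0.88 in KO/Y over −Tx (standard error 0.065 for each, adjusted p = 0.00134, 0.00256 and 1.58e-05 from limma). The largest of these was 1.84-fold. On the slide shared by −Tx and +Tx arrays, with 3 −Tx arrays and 1 +Tx array, the first had an adjusted p of 0.0583 with a log2 fold change of -0.49.

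Foxh1, the forkhead factor that brings activated Smads to DNA, was lowest at 4 days. It was at 0.67, 0.82 and 0.71 on the −Tx arrays, at 0.15, 0.20 and 0.17 on the +Tx arrays, and at 0.32, 0.46 and 0.38 on the KO/Y arrays. No group overlapped another, with −Tx highest. Foxh1 was 1.47-fold lower in +Tx than in −Tx arrays (log2 fold change -0.56, standard error 0.065, adjusted p = 0.000603 from limma). In KO/Y it was 1.27-fold lower than in −Tx arrays (log2 fold change -0.35, adjusted p = 0.00235) and 1.16-fold higher than in +Tx arrays (log2 fold change 0.21, adjusted p = 0.0433). With slide as a block the log2 fold changes of the KO/Y comparisons were -0.38 and 0.20, with an adjusted p of 0.0694 and of 0.114, so neither passed with that setting.

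The 2 intracellular inhibitors were lower in KO/Y cells, Skil by more than 2-fold. Skil was at 1.50, 1.47 and 1.53 on the −Tx arrays, at 1.37, 1.30 and 1.50 on the +Tx arrays, and at 0.32, 0.22 and 0.27 on the KO/Y arrays. The −Tx and +Tx arrays overlapped, and all KO/Y arrays lay below both. Its change at 4 days was -0.11 (95% confidence interval -0.27 to 0.045, adjusted p = 0.268 from limma). Skil fell 2.17-fold from +Tx to KO/Y (log2 fold change -1.12, standard error 0.068, adjusted p = 1.70e-05) and was 2.34-fold below −Tx arrays (log2 fold change -1.23, adjusted p = 2.88e-06).

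Probe 2 of Skil, at -0.47, -0.90 and -0.63 on −Tx, -0.84, -0.85 and -1.10 on +Tx, and -2.11, -2.40 and -1.72 on KO/Y arrays, gave the same order. Its log2 fold change was -1.15 from +Tx to KO/Y and -1.41 in KO/Y over −Tx (adjusted p = 0.00245 and 0.000331 from limma over all probes). It was -0.27 at 4 days (adjusted p = 0.320).

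Smad7 was at 1.61, 1.74 and 1.74 on the −Tx arrays, at 1.32, 1.41 and 1.57 on the +Tx arrays, and at 1.31, 1.01 and 1.03 on the KO/Y arrays. The highest +Tx array lay just under the lowest −Tx array, and the highest KO/Y array just under the lowest +Tx array. Neither single step passed the adjusted p (log2 fold changes of -0.26 and -0.32 with an adjusted p of 0.0929 and of 0.0521 from limma), whereas KO/Y over −Tx did, at 1.50-fold lower (log2 fold change -0.58, adjusted p = 0.00173).

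**Figure D3:**
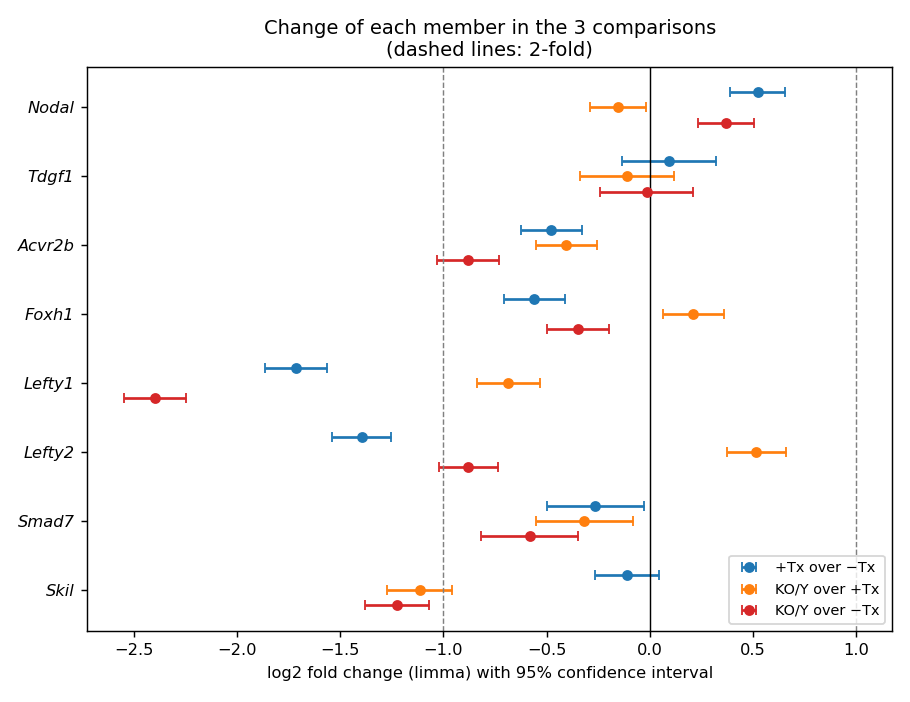
Log2 fold change of each of the 8 genes (points, x axis) with its 95% confidence interval from limma (bars) in +Tx over −Tx, KO/Y over +Tx and KO/Y over −Tx, with dashed lines at 2-fold. Lefty1 and Lefty2 pass 2-fold at 4 days, Skil in both KO/Y comparisons and Lefty1 in KO/Y over −Tx, and the changes of Lefty1 and Lefty2 between +Tx and KO/Y have opposite signs.

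At 4 days, 2 of the 8 genes, Lefty1 and Lefty2, were called lower and 0 higher, where 0.758% of all genes tested were called lower and 1.75% higher. By the adjusted p alone 4 were lower, against 14.7% of all genes, and 1 was higher, against 11.9%. The median log2 fold change of the 8 was -0.37, with -0.064 over all genes. Between +Tx and KO/Y, 1 gene, Skil, was called lower and 0 higher, with 1.05% and 2.37% of all genes, and by the adjusted p alone 3 were lower and 2 higher, with 14.1% and 12.1%. The median was -0.24, and 0.0085 over all genes. In KO/Y over −Tx, 2 genes, Lefty1 and Skil, were called lower and 0 higher, with 2.84% and 4.72% of all genes, and by the adjusted p alone 6 were lower and 1 higher, with 26.4% and 20.5%. The median was -0.73, and -0.063 over all genes. Each group of arrays enters 2 of the 3 comparisons, so these counts are not independent of each other. The 8 genes and the lists below were chosen with earlier results of these data known. The shares over all genes are therefore given for scale, and no test of the 8 as a set was made.

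The other genes of the Nodal and wider TGF-beta pathway were taken from 6 lists with 53 genes, of which 50 were tested. At 4 days, 2 were called lower and 0 higher, where 0.758% and 1.75% of all genes were. By the adjusted p alone 17 were higher and 3 lower, against 11.9% and 14.7% of all genes. The median log2 fold change of the 50 was 0.11, with -0.064 over all genes. Cfc1 (Cryptic), a co-receptor of the same family as Tdgf1, was at -0.94, -0.73 and -0.84 on the −Tx arrays, at -2.29, -2.78 and -2.51 on the +Tx arrays, and at -1.75, -1.39 and -0.91 on the KO/Y arrays. It fell by 1.69 on the log2 scale at 4 days and was higher by 1.17 from +Tx to KO/Y (adjusted p = 0.000717 and 0.00370 from limma), with 1 KO/Y array inside the range of the −Tx arrays. Like Lefty2, it was thus lowest at 4 days. The other gene called at 4 days was Foxa2, a forkhead factor of endoderm and node and an embryonic target of the pathway, with a log2 fold change of -1.37 (adjusted p = 0.00227), and its probe was well above background on 1 of the 3 +Tx arrays only.

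From +Tx to KO/Y, 4 of the 50 were called higher and 0 lower, where 2.37% and 1.05% of all genes were. By the adjusted p alone 17 were higher and 3 lower, against 12.1% and 14.1% of all genes. The median was 0.12, and 0.0085 over all genes. Among the inhibitors, Cer1 (Cerberus-like), a secreted antagonist of Nodal, was at background on all −Tx and +Tx arrays and stood at -3.03, -3.42 and -2.47 on the KO/Y arrays, at least 2.22-fold above +Tx and at least 2.25-fold above −Tx arrays (adjusted p = 8.66e-05 and 2.58e-05 from limma). Of the embryonic targets, Foxa2 had a fitted change of 3.61 on the log2 scale, with its probe well above background on 1 of the 3 +Tx and all KO/Y arrays, and Sox17, an endoderm factor at background in both other groups, at least 5.25-fold. Cfc1 was the remaining gene called. The list of Smads and cofactors and the list of somatic TGF-beta targets, such as Ccn2 and Junb, had 0 calls in this comparison.

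In KO/Y over −Tx, 8 of the 50 were called higher and 1 lower, where 4.72% and 2.84% of all genes were. By the adjusted p alone 25 were higher and 7 lower, against 20.5% and 26.4% of all genes. The median was 0.25, and -0.063 over all genes. The gene called lower was Gdf3, a ligand that shares receptors and co-receptor with Nodal. Its level differed by -1.02 on the log2 scale (standard error 0.064, adjusted p = 6.13e-06 from limma). Its level was 4.33, 4.46 and 4.36 on the −Tx, 3.75, 3.88 and 3.80 on the +Tx, and 3.33, 3.41 and 3.34 on the KO/Y arrays, a stepwise decline with no overlap. The genes called higher were Cer1 and Sox17, with the bounds given above for Cer1 and at least 5.33-fold for Sox17, Foxa2 (2.24 on the log2 scale), the coactivator Crebbp (1.48), Gsc (1.20) and T (1.01), both transcription factors of the primitive streak, the TGF-beta co-receptor Tgfbr3 (1.17), and Fstl3 (1.09), which binds activins outside the cell. Foxa2 and Sox17 also stand in the list of endoderm markers.

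**Figure D4:**
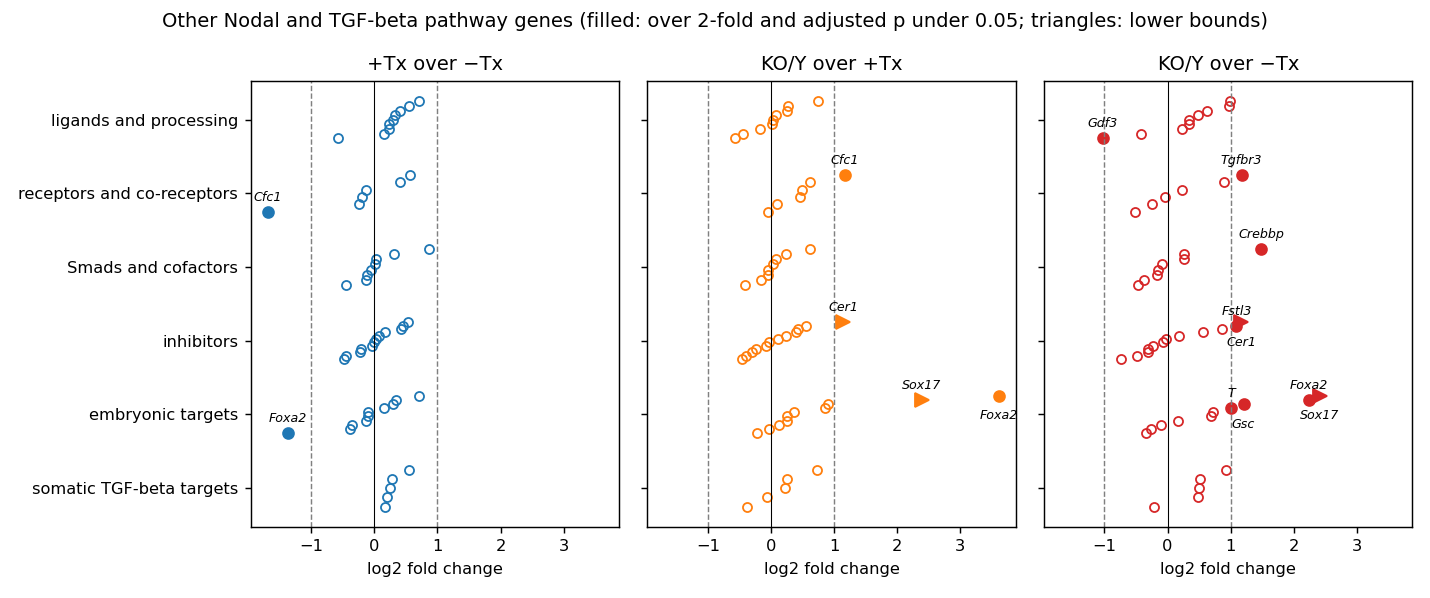
Log2 fold change (x axis) of the 50 tested genes of the 6 pathway lists (rows) in the 3 comparisons (panels), with filled points for genes called at over 2-fold with an adjusted p under 0.05 open points for the rest and triangles at the lower bound for called genes with a group at background. Cfc1 and Foxa2 are the calls at 4 days, both lower, while Cer1 and Sox17 stand as bounds in both KO/Y panels and Foxa2, on 1 of 3 +Tx arrays well above background, has fitted changes of 3.61 and 2.24.

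Markers of other cell types moved in the same comparisons, to an extent that differed between lists. Of 4 primed epiblast markers 0 were called in any comparison. Of 3 neuroectoderm markers 0 were called higher, and 1 was called lower from +Tx to KO/Y and in KO/Y over −Tx. Of all genes, 1.05% and 2.84% were called lower. In KO/Y over −Tx 2 of the 4 tested primitive streak markers were called higher, where 4.72% of all genes were. None of these 4 was called in the other comparisons. Of 14 markers of primitive and visceral endoderm 12 were tested, and 9 were called higher from +Tx to KO/Y and 10 in KO/Y over −Tx. Of all genes, 2.37% and 4.72% were called higher. The medians of the 12 were 2.10 and 2.38. Ttr and Afp, 2 defining visceral endoderm genes, did not pass the filter on dim probes and were not tested. Apart from Foxa2 and Sox17, the largest changes from +Tx to KO/Y were those of Cubn (3.12) and Hnf4a, the latter at least 6.71-fold, and in KO/Y over −Tx those of Cubn (2.89) and Lama1 (2.72). The summed level of the 12 was 512 to 525 on −Tx, 556 to 578 on +Tx and 708 to 795 on KO/Y arrays, but 93.4% to 98.7% of it came from Sparc, a matrix protein gene that stayed under 2-fold. Without Sparc it was 6.93 to 7.09, 8.45 to 10.5 and 30.3 to 46.8 in the same order. At 4 days 1 of the 12 was called lower (Foxa2) and 0 higher, where 0.758% and 1.75% of all genes were. By the adjusted p alone 3 were higher and 2 lower at 4 days, against 11.9% and 14.7% of all genes. The median of the 12 was 0.31 at 4 days, with -0.064 over all genes.

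The study's methods describe culture with or without fibroblast feeder cells, without stating which of these gave the RNA for the arrays. Of 16 fibroblast markers, 0 were called at 4 days and from +Tx to KO/Y, and 1 (Lum, 1.12) in KO/Y over −Tx, but their medians were 0.36, 0.28 and 0.61 and their summed level went from 510 to 538 on −Tx to 632 to 666 on +Tx and 733 to 765 on KO/Y arrays. By the adjusted p alone 10 of the 16 were higher at 4 days, where 11.9% of all genes were. From +Tx to KO/Y 7 were higher, where 12.1% of all genes were. In KO/Y over −Tx all 16 were higher, where 20.5% of all genes were. None of the 16 was lower by the adjusted p in any comparison. All 16 were well above background on all 9 arrays. The summed level of the 10 ES cell markers was 788 to 830, 723 to 770 and 584 to 706 in the same order, of which Dppa5a gave 58.3% to 68.6%. Without Dppa5a it was 323 to 334, 283 to 301 and 206 to 233. No ES cell marker was called. By the adjusted p alone 2 of the 10 were lower at 4 days (Esrrb, -0.41, and Klf2, -0.51), where 14.7% of all genes were. From +Tx to KO/Y 6 were lower, where 14.1% of all genes were, and in KO/Y over −Tx 7, where 26.4% were. None was higher. The largest changes in KO/Y over −Tx were those of Klf2 (-0.99) and Esrrb (-0.82). The part of these markers' cells in the changes of Nodal, Lefty1, Lefty2 and the other pathway genes was not tested.

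Transcripts of the 2-cell-like state, a rare transient state of ES cell cultures, were higher as well. At 4 days 4 of the 5 tested of 6 listed were called higher, where 1.75% of all genes were. Zscan4c (3.27) and Tcstv1 (3.53) were among them. The summed level of the 5 was 13.6 to 14.6 on −Tx, 35.1 to 36.4 on +Tx and 45.2 to 54.6 on KO/Y arrays. Most of it on −Tx arrays came from Zfp352, whose log2 fold change at 4 days was -0.057 (adjusted p = 0.832 from limma). Among trophectoderm markers 5 of 6 were tested, and Elf5 did not pass the filter on dim probes. At 4 days 1 (Hand1) was called higher. By the adjusted p alone 2 were lower at 4 days (Krt8, -0.40, and Krt18, -0.28), where 14.7% of all genes were. From +Tx to KO/Y 3 (Hand1, Krt8 and Krt18) were called higher. Of all genes, 1.75% and 2.37% were called higher. In KO/Y over −Tx 4 of the 5 were called higher, where 4.72% of all genes were, with a median of 1.61. Hand1, at background on the −Tx arrays, was at least 17.7-fold higher there. Cdx2 was well above background on 1 of the 3 −Tx arrays only. The part of the 2-cell and trophectoderm genes in the Nodal pathway changes was not tested.

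**Figure D5:**
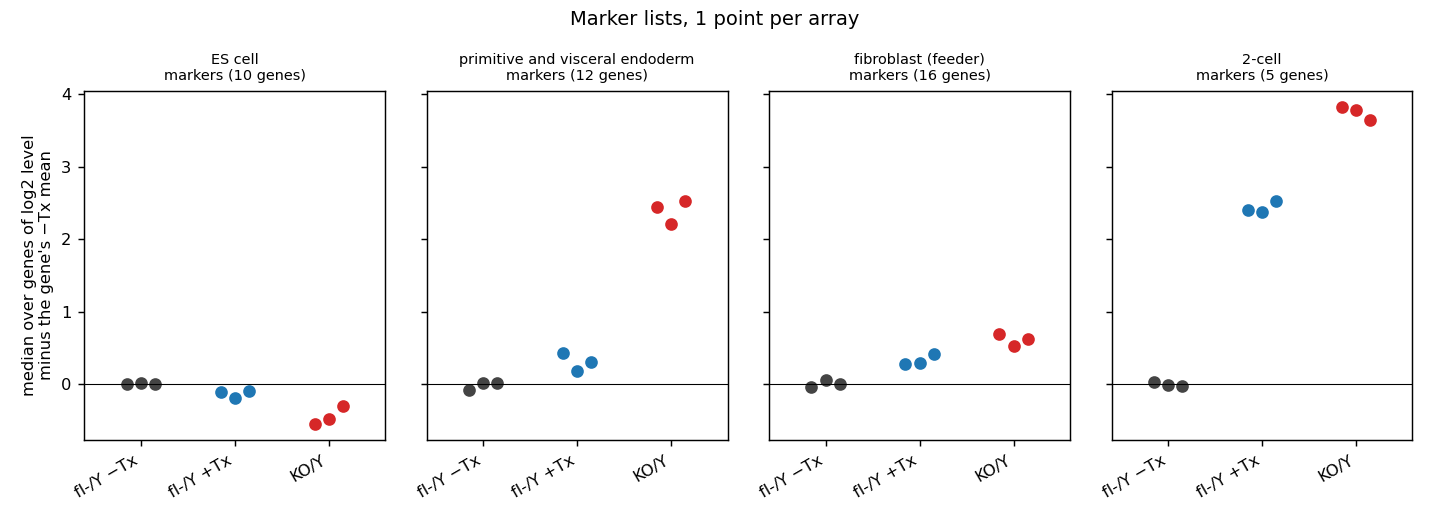
Median over the genes of 4 marker lists (panels) of the log2 level minus the mean of the same gene on −Tx arrays (y axis), with 1 point per array and 3 arrays per group. On KO/Y arrays the median is -0.55 to -0.30 for ES cell markers, 2.20 to 2.53 for endoderm, 0.52 to 0.69 for fibroblast and 3.64 to 3.83 for 2-cell markers.

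Genes whose levels followed the same course over the 9 arrays were sought among 13178 genes with a RefSeq symbol that were well above background on all arrays, by the root mean square difference of log2 levels, each centred on its own mean. Nearest to Lefty1 were Ceacam2 (0.22), Adgrg5 (0.24), Slc12a8 (0.25), Gstt2 (0.25) and Calca (0.25), where the median over all candidates was 0.99. Nearest to Lefty2 were Rimkla (0.083), Glod5 (0.097), Mc3r (0.11), Krt42 (0.13) and Ap3b2 (0.13), with a median of 0.58. Nearest to Nodal were Nes, Ino80, Stk35, Rpap1 and Nop10, between 0.046 and 0.059, with a median of 0.30. Neither Lefty gene was among the 5 nearest of the other, and the difference between the 2 was 0.66. Among the 8 genes themselves the closest pair was Acvr2b and Smad7 (0.19), and the farthest was Lefty1 and Nodal (1.20). These distances describe the arrays only, and genes that move little lie near each other by this measure.

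The promoters of Nodal, Tdgf1 and Acvr2b were found in the RefSeq promoter table (GRCm38.p6), so 3 of the 8 genes could be searched over the 250 bases before the start, at chr10:61417722-61417971 on the plus strand, chr9:110946159-110946408 on the minus strand and chr9:119401928-119402177 on the plus strand. None of the 3 held, on either strand, the Foxh1 motif AATCCACA, the Smad box CAGACA, the Smad palindrome GTCTAGAC, the nuclear receptor half-site AAGGTCA, the Pou5f1 octamer ATGCAAAT or the CACC box CCACCC bound by Klf factors. Over all 32851 promoters of that length, these were held by 0.718%, 17.1%, 0.167%, 4.08%, 1.60% and 28.1%. None of the 6 motifs contains another.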

How the data were processed

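The authors deposited, per the file headers, Agilent Feature Extraction (10.7.3.1) output with a processed Cy3 intensity per spot, background-subtracted, and for the series a signal column per group. That column equals the group's mean log2 intensity up to a constant, so it served for direction only. The paper names NIA Array Analysis Software with calls at over 2-fold and a false discovery rate of 0.05, and gives no further settings. The paper calls the samples biological triplicates, but no label ties a replicate to an array, so arrays are numbered by slide position. P-values measure the spread between these arrays.

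In R 4.3.3 (data.table version 1.17.8), log2 intensities minus each array's 75th percentile were used. Outlier spots were left out, spots of a probe averaged, probes kept if all arrays of 1 or more groups were well above background, and the brightest probe taken per gene. limma 3.58.1 (lmFit, eBayes) was fitted to all 9 arrays. Folds against a group at background are bounds, set per array by the lowest signal counted as well above background. On simulated data of +Tx over −Tx, 192 of 200 changed genes and 1 of the other genes were called among 22441.

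The 8 genes and all lists were chosen with earlier results of these data known, and 2 genes of the pathway lists are not reported here. Named were the 8 genes, Nr0b1, up to 4 called genes of each pathway list and of the endoderm and fibroblast markers per comparison, ES cell markers, and the 5 genes nearest in pattern to Lefty1, Lefty2 and Nodal; 2-cell and trophectoderm genes were named after their values were seen. Alternatives changed background correction, scaling, filters, slide, variance estimate, call rule, probe summary and arrays left out.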

Additional observations from a re-analysis of the deposited data

How the results depend on the processing

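The number of the 8 genes called was recomputed under each alternative. At 4 days it was 2, with 5 without a fold limit and 2 under every other alternative. Between +Tx and KO/Y it was 1, with 0 under normexp background correction (Skil -0.997 on the log2 scale, adjusted p = 3.15e-06 from limma, just short of 2-fold), 0 in a test against a fold of 2 and 5 without a fold limit. In KO/Y over −Tx it was 2, with 1 in a test against a fold of 2 and 7 without a fold limit. Leaving out each array in turn gave 2 to 2, 1 to 1 and 2 to 2. Scaling moved the median of all genes by less than 0.1 on the log2 scale.

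Of 568 values of single genes under alternatives, 24 came from the deposited signal column, which carries no call. That column equals the group means up to a constant, so the agreement of these 24 was largely fixed in advance. Of the 568, 548 were unchanged, in direction and call for all but these 24. A further 12 were called once the fold limit was dropped, 3 (all of Skil) were lost, and 5 changed sign. Those 5 were all of Tdgf1 in KO/Y over −Tx, at -0.015: 0.072 with quantile normalization, 0.13 with slide as a block, 0.24 with the mean of its probes, 0.069 without −Tx array 1 and 0.018 without KO/Y array 1, where leaving out single arrays gave -0.070 to 0.069. With the mean of its probes Tdgf1 passed the adjusted p (0.0154) there and at 4 days (0.34, adjusted p = 0.00720). The cause was not tested. The adjusted p of Foxh1 from +Tx to KO/Y was at or over 0.05 in 15 settings, including 8 of the 9 in which 1 array was left out.

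No paired analysis was possible because no label ties a replicate number to an array. The 3 arrays per group and the missing slide shared by −Tx and KO/Y arrays limit all comparisons, and KO/Y over −Tx within a slide could not be computed.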
